A study of Mus musculus with 6 samples.

Results

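Mitophagy removes damaged or surplus mitochondria by wrapping them in autophagosome membrane, and 8 genes of its marking and receptor steps were followed in mouse embryonic fibroblasts with and without NGLY1. They are Pink1, Sqstm1, Optn, Fundc1, Bnip3, Bnip3l, Phb2 and Tbc1d15, taken by symbol from a deposited count table of 23842 genes, in which each symbol had 1 row. The measurement was total RNA sequencing of 3 libraries labelled NGLY1-/- and 3 labelled WT, all from untreated C57BL/6 fibroblasts in high-glucose medium with serum. NGLY1 is the cytosolic enzyme that strips N-linked glycans from misfolded glycoproteins, and the design asked which genes differ when it is missing. The labels do not give the deleted part of the gene, the number of embryos or lines, or the passage, so the p-values measure only the spread between these libraries, which may be technical.

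In the ubiquitin route of mitophagy, the kinase PINK1 accumulates on mitochondria that cannot import it, and phosphorylates ubiquitin, which marks them for removal. Adaptor proteins such as p62 (from Sqstm1) and optineurin (from Optn) then bind both the ubiquitin chains and LC3 or GABARAP proteins of the autophagosome membrane. In the receptor route, membrane proteins of the mitochondrion itself, among them FUNDC1, BNIP3 and NIX (from Bnip3l), bind LC3 or GABARAP directly, and this route is known from hypoxic cells and maturing red cells. Cultured fibroblasts are widely used to study both routes.

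The knockout-labelled libraries held 33007239 to 37841558 counts each and the wild-type ones 27323577 to 37790710. Ngly1 itself averaged 14.6 ± 3.11 CPM (counts scaled to the size of the library; SD, n = 3) in the knockout-labelled and 14.6 ± 2.94 CPM (SD, n = 3) in the wild-type libraries. Counts are given per gene, and the deleted part of Ngly1 is not given. This level therefore does not check the genotype, and the directions below rest on the labels alone. The fibroblast markers Col1a1, Col1a2, Col3a1, Pdgfrb, Thy1 and Vim summed to 3600 to 4120 CPM in the knockout-labelled and 5170 to 5760 CPM in the wild-type libraries, and 4 of the 6 were called lower. Vim was lower, at 652 to 726 CPM in the knockout-labelled and 1517 to 1978 CPM in the wild-type libraries. Col1a1 overlapped, at 1017 to 1240 CPM in the knockout-labelled and 1123 to 1265 CPM in the wild-type libraries. Col3a1 overlapped too, at 319 to 401 CPM in the knockout-labelled and 132 to 362 CPM in the wild-type libraries. Markers of leukocytes summed to at most 2.71 CPM in the knockout-labelled and 3.64 CPM in the wild-type libraries, with Ptprc at 0 in 5 of the 6, and those of endothelium to at most 2.40 CPM in the knockout-labelled and 1.98 CPM in the wild-type libraries. Of the endothelial markers, 1 was called higher. Kdr lay higher, at 2.04 to 2.31 CPM in the knockout-labelled and 0.934 to 1.46 CPM in the wild-type libraries. Pecam1 lay lower, at most 0.0305 CPM in the knockout-labelled and 0.180 to 0.369 CPM in the wild-type libraries. Epithelial markers, nearly all of them Krt19, summed to 22.1 to 31.3 CPM in the knockout-labelled and 54.2 to 108 CPM in the wild-type libraries, and 3 of the 5 were called lower. Neural markers summed to 55.0 to 67.2 CPM in the knockout-labelled and 36.1 to 43.9 CPM in the wild-type libraries. Among them Tubb3 was higher, at 33.6 to 40.9 CPM in the knockout-labelled and 10.8 to 14.5 CPM in the wild-type libraries. Map2 overlapped, at 20.5 to 26.3 CPM in the knockout-labelled and 22.1 to 29.4 CPM in the wild-type libraries. The muscle markers Des and Acta1 summed to 3.92 to 4.24 CPM in the knockout-labelled and 0.796 to 1.38 CPM in the wild-type libraries. Des was higher, at 3.24 to 3.78 CPM in the knockout-labelled and 0.110 to 0.836 CPM in the wild-type libraries. Acta1 overlapped, at 0.442 to 0.677 CPM in the knockout-labelled and 0.385 to 1.24 CPM in the wild-type libraries. The globin genes Hba-a1 and Hba-a2 summed to at most 0.0295 CPM in the knockout-labelled and 0.147 CPM in the wild-type libraries. The part of all these markers in the results was not tested.

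The mitophagy genes did not all change in one direction. Both ubiquitin-binding adaptors, Sqstm1 and Optn, were higher in the knockout-labelled libraries, by 2.21-fold and 2.01-fold. The kinase gene Pink1 was 2.31-fold lower. The outer-membrane receptor genes among these 8 were lower too: Bnip3 by 2.52-fold, Fundc1 by 2.49-fold and Bnip3l by 1.67-fold. Tbc1d15 was lower by a small margin, and Phb2 did not pass the test. All 8 genes passed the low-count filter, and of these 2 were higher and 5 lower at a false discovery rate of 0.05. Among all 15039 genes tested, 30.7% were called higher, 30.2% lower and 60.9% in either direction, so a call is common in this comparison. The libraries of the groups did not overlap for 7 of the 8 genes and for 67.3% of all tested genes. A fall of at least 2-fold, found for 3 of the 8, was called for 14.9% of all tested genes, and a rise of that size, found for 2 of the 8, for 13.6%. In RNA from whole cultures, fewer cells of a kind and less RNA per cell cannot be told apart.

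**Figure D1:**
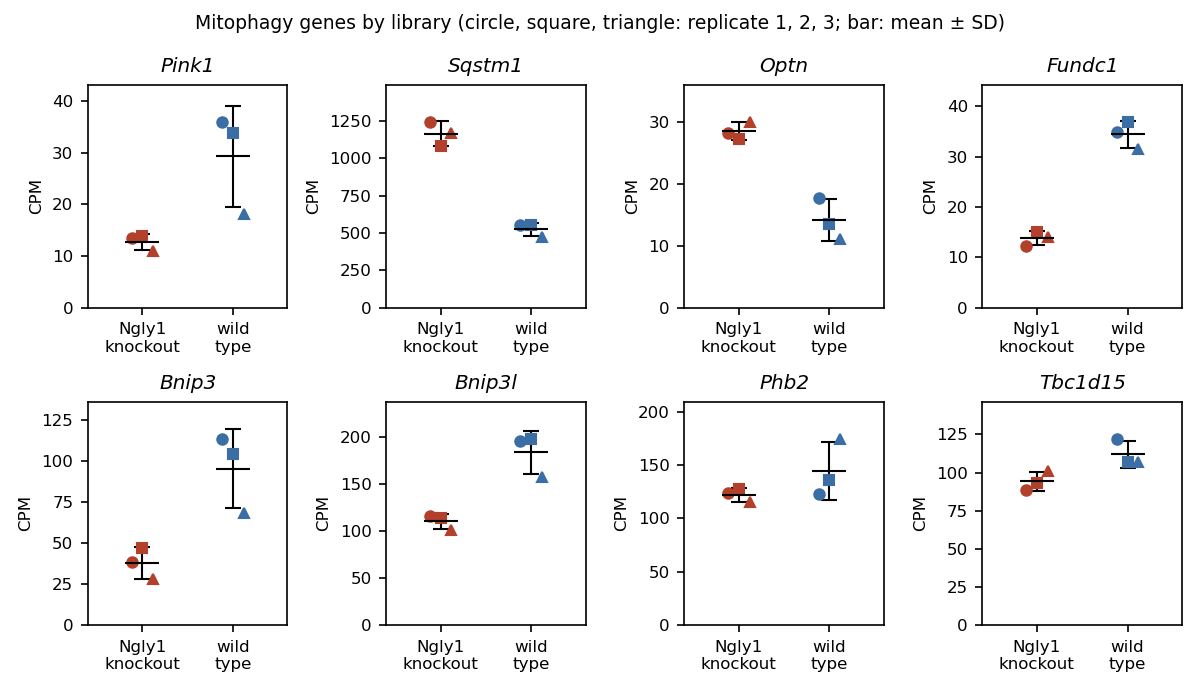
Level of each tested mitophagy gene in CPM (vertical axis, from 0) in each library, knockout left and wild type right; symbols are replicates 1, 2 and 3, and bars are the mean ± SD of 3 libraries. Sqstm1 and Optn lie higher in all 3 knockout libraries, Pink1, Fundc1, Bnip3, Bnip3l and Tbc1d15 lie lower, and the groups overlap for Phb2.

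Pink1 (gene ID 68943; chromosome 4, 138313409 to 138326307 in GRCm38) encodes the kinase that starts the ubiquitin route. It had 13.5, 13.8 and 10.9 CPM in the knockout-labelled libraries, against 36.0, 33.9 and 18.1 CPM in the wild-type libraries. The groups did not overlap, but wild-type replicate 3 lay much nearer to the knockout-labelled libraries than the other wild-type libraries did. The log2 fold change was -1.21 with a standard error of 0.24 (adjusted p = 0.00223), a level 2.31-fold lower with a 95% interval of 1.58 to 3.38. Leaving out any single library gave a log2 fold change between -1.44 and -1.03, each time past the threshold.

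Sqstm1 (gene ID 18412; chromosome 11, 50199366 to 50210827) encodes p62, an adaptor that gathers ubiquitin-tagged cargo and is itself consumed by autophagy. It reached 1246, 1082 and 1173 CPM in the knockout-labelled libraries, against 552, 552 and 476 CPM in the wild-type libraries. The lowest knockout-labelled library lay far above the highest wild-type one, and replicates agreed closely, with a coefficient of variation of 7.05% in the knockout-labelled and 8.38% in the wild-type libraries. This gave a log2 fold change of 1.15 (SE 0.11, adjusted p = 1.3e-05), or 2.21-fold with an interval of 1.87 to 2.62. Its 3' end overlaps the opposite-strand gene Mrnip, and no strand setting is given. Mrnip was called higher too (log2 fold change 0.59, adjusted p = 0.0328), at 8.33 ± 1.77 CPM in the knockout-labelled and 5.52 ± 0.992 CPM in the wild-type libraries (SD, n = 3 each), and the sharing of reads between them was not tested.

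Optn (gene ID 71648; chromosome 2, 5020642 to 5064051) encodes optineurin, the other adaptor, which the kinase TBK1 phosphorylates during mitophagy. It had 28.2, 27.1 and 29.97 CPM in the knockout-labelled libraries, against 17.7, 13.5 and 11.1 CPM in the wild-type libraries. All knockout-labelled libraries were higher, with a coefficient of variation of 5.07%, against 23.9% in the wild-type libraries. On the log2 scale the change was 1.004 (SE 0.16, adjusted p = 0.000439), or 2.01-fold with an interval of 1.56 to 2.58.

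Bnip3 (gene ID 12176; chromosome 7, 138890836 to 138909519) encodes an outer-membrane receptor of the BCL2 family that is known as a target of the hypoxia factor HIF1. It had 38.6, 47.0 and 27.9 CPM in the knockout-labelled libraries, against 114, 105 and 68.3 CPM in the wild-type libraries. The lowest libraries of each group were those numbered 3, and the groups stayed apart. Its log2 fold change was -1.34 (SE 0.23, adjusted p = 0.000998), 2.52-fold lower with an interval of 1.76 to 3.63.

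Bnip3l (gene ID 12177; chromosome 14, 66985239 to 67008877) encodes NIX, a relative of BNIP3 that clears mitochondria from maturing red cells. It had 116, 114 and 101 CPM in the knockout-labelled libraries, against 196, 198 and 158 CPM in the wild-type libraries. It too was separated between the groups, with a log2 fold change of -0.74 (SE 0.11, adjusted p = 0.000297), 1.67-fold lower.

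Fundc1 (gene ID 72018; chromosome X, 17556564 to 17572325) encodes a receptor of the outer membrane that the kinases SRC and CK2 hold inactive and ULK1 and the phosphatase PGAM5 activate. It had 12.3, 15.02 and 14.2 CPM in the knockout-labelled libraries, against 34.9, 37.0 and 31.5 CPM in the wild-type libraries. The groups were far apart relative to their spread, and the adjusted p was the smallest of the 8 genes tested. The log2 fold change was -1.32 (SE 0.12, adjusted p = 1.01e-05), 2.49-fold lower with an interval of 2.07 to 3.00.

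The 250 bases before the annotated start of Bnip3 and of Sqstm1 are shown as examples of a receptor gene that was lower and an adaptor gene that was higher. Both sequences are from RefSeq in build GRCm38.p6, on the minus strand of the chromosome, and capitals mark the core motif of HIF1 (ACGTG, on either strand).
Bnip3, chr7:138909507-138909756: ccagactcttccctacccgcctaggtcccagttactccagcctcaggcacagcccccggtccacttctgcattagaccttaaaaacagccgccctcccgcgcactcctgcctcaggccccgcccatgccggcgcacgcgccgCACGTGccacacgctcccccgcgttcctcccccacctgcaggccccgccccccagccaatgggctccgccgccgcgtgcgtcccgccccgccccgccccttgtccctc
Sqstm1, chr11:50210821-50211070: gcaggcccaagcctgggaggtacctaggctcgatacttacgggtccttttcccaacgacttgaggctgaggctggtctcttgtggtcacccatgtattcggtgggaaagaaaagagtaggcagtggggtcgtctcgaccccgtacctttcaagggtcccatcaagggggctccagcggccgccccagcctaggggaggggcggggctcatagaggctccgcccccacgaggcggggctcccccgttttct
The 6 capitals in the Bnip3 sequence begin 108 bases before the start and read the same on both strands, so that the HIF1 core occurs on each strand there and coincides with an E-box (CACGTG). Of 32851 RefSeq windows of this length, 16.6% hold the HIF1 core and 6.02% the E-box. Among the 13842 windows of tested genes the shares are 21.2% and 8.06%, so a match to the HIF1 core is a common one. The Sqstm1 window held neither, nor the core motifs searched for NRF2 (TGACNNNGC, in 10.2% of all windows), ATF4 (TGATGNAA, 3.45%) or FOXO factors (TGTTTAC, 3.17%). Among windows of tested genes these shares are 11.5%, 2.01% and 2.21%. Windows were found for 7 of the 8 genes, and besides Bnip3 the only matches were a HIF1 core before Phb2 and an ATF4 core before Tbc1d15. The Fundc1 window (17572008 to 17572257, minus strand) lies inside the GENCODE span of the gene, which ends at 17572325. Its lack of a match therefore does not describe the bases before that start. A match describes letters and not binding, and the absence of a match concerns these windows only.

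Phb2 (gene ID 12034; chromosome 6, 124712336 to 124716950) encodes prohibitin 2, an inner-membrane protein that binds LC3 once the outer membrane has ruptured. It had 123, 128 and 115 CPM in the knockout-labelled libraries, against 123, 136 and 175 CPM in the wild-type libraries. The ranges overlapped, and the spread among wild-type libraries came mainly from replicate 3. In the test the log2 fold change was -0.24 (SE 0.13, adjusted p = 0.128), with an interval of -0.53 to 0.05. The call was gained without wild-type replicate 1 (log2 fold change -0.35, adjusted p = 0.0338) and when libraries were scaled by their totals only (-0.35, adjusted p = 0.0229).

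Tbc1d15 (gene ID 66687; chromosome 10, 115197872 to 115251467) encodes a GTPase-activating protein that is recruited to mitochondria by FIS1 and turns off RAB7, which shapes the growing autophagosome. It had 88.5, 93.3 and 101 CPM in the knockout-labelled libraries, against 122, 107 and 107 CPM in the wild-type libraries. The groups did not overlap but nearly met. The fitted log2 fold change was -0.25 (SE 0.10, adjusted p = 0.0455), 1.19-fold lower. This call was lost without knockout replicate 1, 2 or 3 (adjusted p = 0.147, 0.144 and 0.059) and without wild-type replicate 1 or 2 (0.168 and 0.0828), leaving wild-type replicate 3 as the 1 library whose removal kept it (0.0252).

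**Figure D2:**
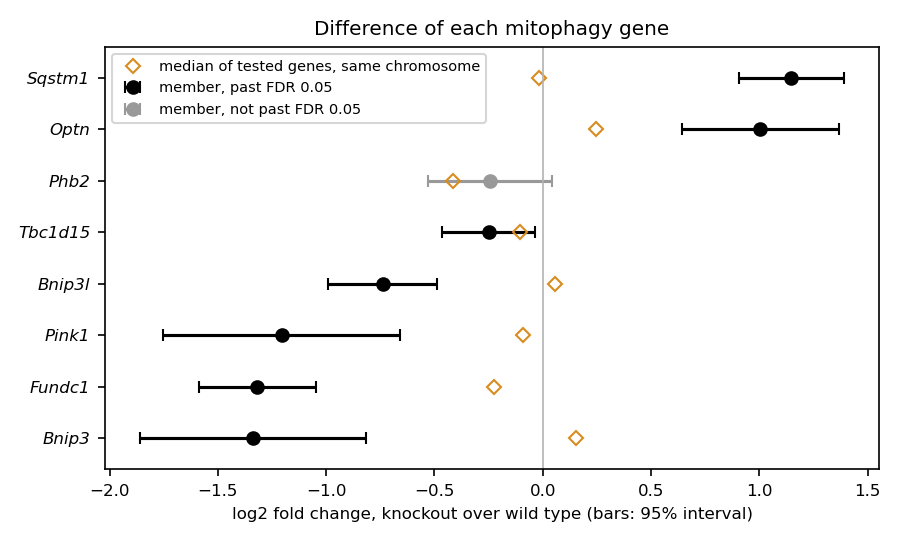
Log2 fold change of each tested mitophagy gene, knockout over wild type (horizontal axis), with its 95% interval; black points pass a false discovery rate of 0.05, the grey one does not, and open diamonds give the median of all tested genes on the same chromosome. Sqstm1 at 1.15 and Optn at 1.004 lie right of 0, and Bnip3l, Pink1, Fundc1 and Bnip3 lie at -0.74 to -1.34, outside the chromosome medians of -0.41 to 0.25.

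The median log2 fold change of the tested genes varied from chromosome to chromosome, so each gene was set beside its neighbours. No chromosome was tested as a whole. The 8 genes lie on 8 different chromosomes. Genes of chromosome X, where Fundc1 lies, had a median log2 fold change of -0.23, with 38.8% called lower and 21.3% higher, and those within 5 Mb of Fundc1 one of -0.33. Fundc1 was 1.09 below the chromosome median and 0.99 below that of its window on the log2 scale. The Y-linked genes Ddx3y, Eif2s3y, Kdm5d and Uty had log2 fold changes of -1.54, -1.02, -1.68 and -1.74, and Xist stayed at or below 0.501 CPM in all 6 libraries. Phb2 lies on chromosome 6, whose median was -0.41 with 46.7% called lower and 17.0% higher, and Phb2 was 0.17 above that median. Genes of chromosome 2, where Optn lies, had a median of 0.25, but the 28 tested genes within 5 Mb of Optn had one of 0.04, and Optn was 0.97 above it. For Bnip3, Bnip3l, Pink1 and Sqstm1 the chromosome medians lay between -0.09 and 0.16. The medians within 5 Mb of these genes were -0.04, -0.19, -0.23 and 0.05. Bnip3, Bnip3l and Pink1 were 1.30, 0.54 and 0.98 below the medians of their windows, and Sqstm1 was 1.10 above that of its window. Tbc1d15 was 0.14 below the median of chromosome 10 (-0.11) and 0.20 below that of its window (-0.05). The part of these chromosome shifts in the single genes was not tested.

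Per kilobase of merged exon, which allows levels of different genes to be compared, Sqstm1 stood far above the others, at 348 CPM per kilobase in the knockout-labelled and 157 in the wild-type libraries. In the knockout-labelled libraries Phb2 (32.8 CPM per kilobase), Bnip3l (28.6), Tbc1d15 (22.1), Bnip3 (16.7), Optn (7.57), Fundc1 (5.87) and Pink1 (4.77) followed, and no neighbours in this order overlapped between libraries. In the wild-type libraries the order was Bnip3l (47.7 CPM per kilobase), Bnip3 (42.1), Phb2 (38.9), Tbc1d15 (26.3), Fundc1 (14.6), Pink1 (11.0) and Optn (3.76). There Bnip3l, Bnip3 and Phb2 overlapped, as did Fundc1 and Pink1. Optn thus stood last in the wild-type libraries and above Fundc1 and Pink1 in the knockout-labelled ones. These levels depend on the exon model, here that of GENCODE M21.

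Ratios of 2 related genes within a library do not depend on how libraries are scaled. The ratio of Bnip3 to Bnip3l counts was 0.332, 0.412 and 0.277 in the knockout-labelled libraries, against 0.579, 0.528 and 0.433 in the wild-type libraries. Fundc1 to its paralog Fundc2, which lies on chromosome X as well, had ratios of 0.353, 0.406 and 0.392 in the knockout-labelled libraries, against 0.531, 0.518 and 0.575 in the wild-type libraries. In both pairs the groups were separate, with Bnip3 and Fundc1 lower relative to their relatives in the knockout-labelled libraries. The group means differed by -0.60 and -0.50 on the log2 scale. For Bnip3 to Bnip3l the groups nearly met, at 0.412 in knockout replicate 2 and 0.433 in wild-type replicate 3. The ratio of Phb2 to Phb, the gene of its ring partner prohibitin 1, was 0.820, 0.920 and 0.904 in the knockout-labelled libraries, against 1.17, 1.08 and 1.09 in the wild-type libraries. These groups were also separate, with means that differed by -0.34 on the log2 scale. The ratio of Sqstm1 to Optn overlapped, at 44.3, 39.9 and 39.1 in the knockout-labelled libraries, against 31.1, 40.8 and 42.9 in the wild-type libraries. The 3 separate pairs had p = 0.1 in a two-sided exact permutation test, the smallest that 3 against 3 libraries allow, and 0.133 adjusted over the 4 pairs, while Sqstm1 to Optn had an exact p = 0.7. This test cannot pass 0.05 with so few libraries.

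**Figure D3:**
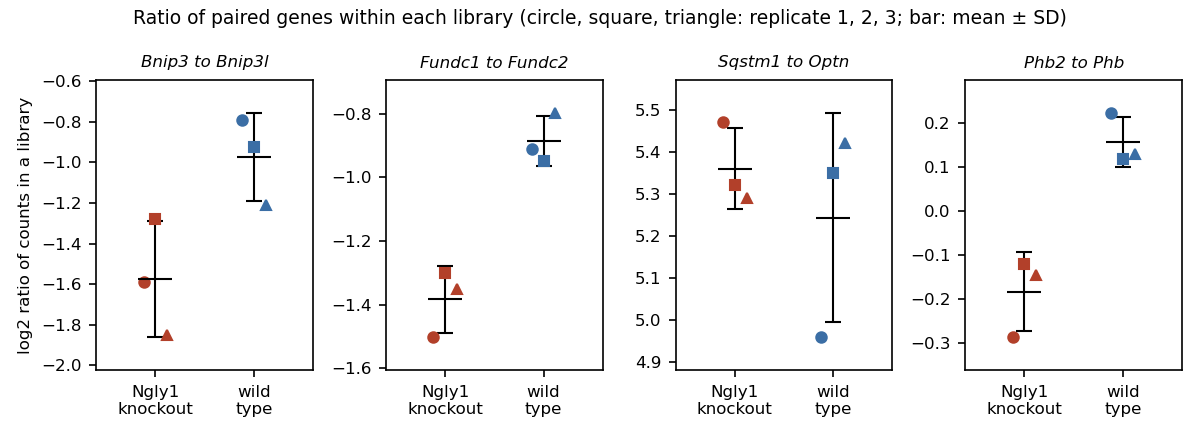
Log2 ratio of the counts of 2 genes in the same library (vertical axis, a different range in each panel), knockout left and wild type right, with the mean ± SD of 3 libraries. The groups are separate for Bnip3 to Bnip3l, Fundc1 to Fundc2 and Phb2 to Phb, and overlap for Sqstm1 to Optn.

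Of 78 further genes of mitophagy in 7 lists by role, 77 were tested, of which 24 were higher and 24 lower (62.3% called, beside 60.9% of all tested genes). Their median log2 fold change was 0.06, and that of all tested genes -0.04. No list test was made, and the counts describe these genes without setting them apart from others.

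Of 10 other receptors and partners on the mitochondrial membrane, 5 were lower and 2 higher, with 4 higher without wild-type replicate 3. Fundc2 was 1.78-fold lower (adjusted p = 0.000135). Nlrx1, an innate immune receptor in mitochondria that can bind LC3, was nearly silent in the knockout-labelled libraries, at 0.0403 ± 0.0467 CPM (SD, n = 3), against 2.55 ± 0.177 CPM (SD, n = 3) in the wild-type libraries (adjusted p = 1.23e-05). Pgam5, the phosphatase of FUNDC1, was 2.25-fold higher, at 85.9 ± 14.0 CPM in the knockout-labelled and 38.1 ± 5.51 CPM in the wild-type libraries. Phb gave a log2 fold change of 0.09 (adjusted p = 0.596), or -0.016 when scaled by library totals only.

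Genes of PINK1 import and cleavage were higher for 6 of 12 and lower for 1. None of them was lower without knockout replicate 2, knockout replicate 3 or wild-type replicate 2 (0 of 12 in each). Timm23, the inner-membrane import channel, had a log2 fold change of 0.95, Oma1, a protease that cleaves PINK1, one of 0.73, and Timm50, an import receptor, one of 0.58 (adjusted p = 0.00228, 0.00173 and 0.00147). Tomm20, an outer-membrane import receptor, gave a log2 fold change of 0.23 (adjusted p = 0.122).

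Ubiquitin enzymes and substrates on the outer membrane were higher for 7 of 18 and lower for 2. The lower count was 1 when replicate 1 or 2 of the knockout, or 2 or 3 of the wild type, was left out. Ube2d2a, a ubiquitin-conjugating enzyme, and Usp8, a deubiquitinase, had log2 fold changes of 0.88 and 0.68, and Hk1, a hexokinase bound to the outer membrane, one of -0.76 (adjusted p = 3.61e-05, 0.000172 and 8.57e-05). Ube2l3 gave a log2 fold change of 0.05 (adjusted p = 0.671), or -0.064 when scaled by library totals only.

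Other adaptor genes and their regulators were lower for 4 of 9 and higher for 2. Scaling by library totals only left 1 higher. Keap1, which holds NRF2 back and is sequestered by p62, was 2.26-fold lower (adjusted p = 4.33e-06), and Nfe2l2, the gene of NRF2, which is known to drive Sqstm1, was 2.30-fold higher (adjusted p = 4.65e-05). Keap1 had 32.5 ± 2.06 CPM in the knockout-labelled and 73.4 ± 2.97 CPM in the wild-type libraries, and Nfe2l2 had 163 ± 30.6 CPM in the knockout-labelled and 71.0 ± 4.83 CPM in the wild-type libraries (SD, n = 3 each). The part of Keap1 and Nfe2l2 in the level of Sqstm1 was not tested, and NRF2 protein was not measured. The adaptor gene Tax1bp1 was 1.58-fold lower (adjusted p = 0.000117), and the adaptor gene Nbr1 gave a log2 fold change of -0.16 (adjusted p = 0.354).

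The LC3 and GABARAP genes, whose products the adaptors and receptors bind, were lower for 3 of 5 and higher for 1. Gabarapl1 and Gabarapl2 were both 1.64-fold lower (adjusted p = 0.000211 and 9.59e-05), whereas Map1lc3a was 2.97-fold higher, with 41.6 ± 4.29 CPM in the knockout-labelled and 13.9 ± 2.20 CPM in the wild-type libraries (SD, n = 3 each). Gabarap gave a log2 fold change of -0.32 (adjusted p = 0.0769). It passed with the replicate block (-0.30, adjusted p = 0.0474) and when scaled by library totals only (-0.44, adjusted p = 0.0304).

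Partners of TBC1D15 and the RAB GTPases of mitophagy were lower for 6 of 11 and higher for 0 (at an unadjusted p under 0.05 also 0; 0 in DESeq2 and limma-voom). Fis1, the anchor of TBC1D15, was 1.33-fold lower, and Mon1a and Mon1b, which activate RAB7, were 1.56-fold and 1.49-fold lower (adjusted p = 0.00751, 0.00258 and 0.00335). Rab5a gave a log2 fold change of -0.10 (adjusted p = 0.377). Only 3 of the 11 were lower without knockout replicate 1, knockout replicate 2 or wild-type replicate 2.

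Regulators of the receptors were higher for 6 of 12 and lower for 3. Ulk1, the autophagy kinase that phosphorylates FUNDC1, was 1.88-fold lower, while Src and Csnk2a1, the inhibitory kinases of FUNDC1, were 1.88-fold and 1.83-fold higher (adjusted p = 0.00031, 0.000568 and 3.75e-05). Csnk2a2, the other catalytic subunit of CK2, gave a log2 fold change of 0.15 (adjusted p = 0.293). Of the hypoxia factor genes, Hif1a was 1.35-fold higher and Epas1 4.83-fold lower (adjusted p = 0.00898 and 0.00188). Hif1a had 350 ± 42.6 CPM in the knockout-labelled and 259 ± 26.3 CPM in the wild-type libraries (SD, n = 3 each). Epas1 had at most 0.295 CPM in the knockout-labelled and 1.10 CPM in the wild-type libraries. Their part in the level of Bnip3 was not tested. Without wild-type replicate 3, those named from the 7 lists as not called, other than Ube2l3 and Rab5a, passed: Phb at 0.28, Tomm20 at 0.32, Nbr1 at -0.31, Gabarap at -0.46 and Csnk2a2 at 0.29 on the log2 scale (adjusted p = 0.0252, 0.0168, 0.00847, 0.00024 and 0.0122).

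**Figure D4:**
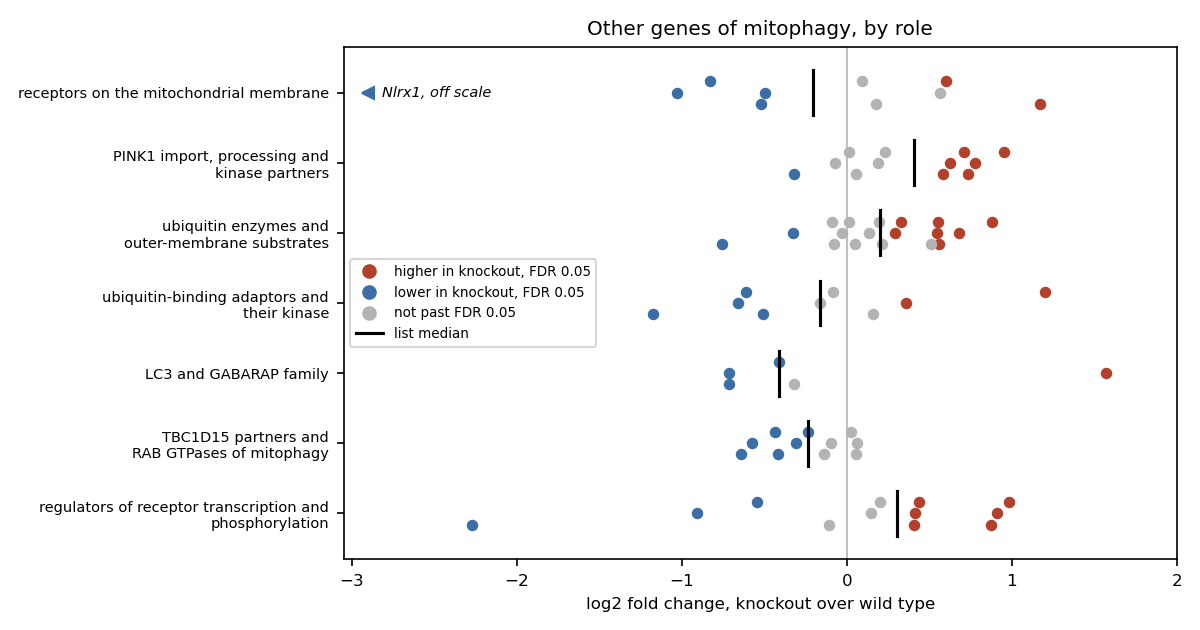
Log2 fold change, knockout over wild type (horizontal axis), of 77 other mitophagy genes in 7 lists by role; red points are higher, blue points lower at a false discovery rate of 0.05, grey points did not pass, and black lines are list medians. Medians run from -0.41 for the LC3 and GABARAP family to 0.41 for PINK1 import and processing, and Nlrx1, at -5.90, is drawn at the left edge.

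Among 10194 tested genes with at least 5 CPM on average, the profiles nearest to that of Sqstm1 over the 6 libraries were those of Tmem230, Ermp1, Il1r1 (the interleukin-1 receptor gene) and Nr3c1 (the glucocorticoid receptor gene). Their root-mean-square differences from Sqstm1 were 0.0383, 0.0384, 0.0448 and 0.0540 in centred log2 CPM. Nearest to Bnip3 were Camkk1, Pdk1, a kinase that inhibits pyruvate dehydrogenase, Fam69b and Dbp, a clock-output transcription factor gene, at differences of 0.0796, 0.0844, 0.102 and 0.117. Likeness over 6 libraries in 2 groups is a description and mostly reflects the difference between the groups.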

How the data were processed

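Per the labels' protocols, the RNA came from a Trizol extraction and a stranded total RNA kit. The deposited table holds raw counts, made by the authors as whole-number counts per NCBI Gene ID in 6 libraries, per the file headers. The submitters' processing notes name STAR 2.5.1b and mm10. How reads were counted, and with which strand setting, is not given in the sources used here. Genes that overlap or are nearly identical may therefore share reads. In the GENCODE annotation, antisense or pseudogene entries overlap Bnip3, Optn and Phb2 on the opposite strand. On the same strand, the snoRNA Gm23547 overlaps Phb2, and the miRNAs Mir7019 and Gm27646 overlap Pink1.

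All genes were tested in R 4.3.3 with edgeR 4.0.16 (filterByExpr, TMM scaling, robust quasi-likelihood fit, genotype as the only term, two-sided, Benjamini-Hochberg adjustment over 15039 genes at 0.05). The biological coefficient of variation was 15.5%. CPM values use TMM-scaled sizes. The script was tested on simulated data. Libraries of a group differed by more than sampling noise (chi-square per gene of 11.3 or more).

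The members and lists were chosen with earlier results of these data known. Named genes were the 8 members and, per list, up to 3 called genes with the smallest p and the most abundant gene not called. Hif1a and Epas1 were named in addition, because Bnip3 is known as a HIF1 target. The profiles of likeness, for the genes with the highest and lowest fitted fold change over all 6 libraries, used log2 CPM with a prior count of 2. This order changes without wild-type replicate 1, without knockout replicate 3 and without both libraries numbered 3. One further gene of the set, and a ratio that needed it, are not reported here. Alternatives were DESeq2 1.42.0 size factors and test, limma-voom (limma 3.58.1), library totals, other filters, the replicate number as a block, no structural RNA genes, and libraries left out. Gene positions are from GENCODE M21 and promoter sequences from RefSeq, both GRCm38, the assembly of mm10.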

Additional observations from a re-analysis of the deposited data

How the results depend on the processing

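Under 15 alternative settings, Pink1, Sqstm1, Optn, Fundc1, Bnip3 and Bnip3l kept their direction and stayed past the threshold in each, with an adjusted p of at most 0.0228 (Bnip3 with no low-count filter). Tbc1d15 lost its call in 8 of the 15, among them no low-count filter (log2 fold change -0.22), the replicate block (-0.25, adjusted p = 0.0627) and no structural RNA genes (-0.24), and ranged from -0.28 to -0.18 with single libraries left out. Phb2 ranged from -0.35 to -0.071 with single libraries left out, and was -0.35 with library totals only and -0.031 without both libraries numbered 3. Scaling by library totals only moved the median of all genes by -0.12, and the share of calls that were higher was 42.4% there and 50.4% with TMM. It took Phb to -0.016 and Ube2l3 to -0.064. With single libraries left out, Phb ranged from -0.040 to 0.28, Ube2l3 from -0.010 to 0.12 and the log2 ratio difference of Sqstm1 to Optn from -0.029 to 0.20. Libraries sharing a number were not shown to be pairs: deviations from the group means correlated at 0.0961, 0.0138 and 0.209 for numbers 1, 2 and 3, and knockout replicates 1 and 2 correlated best with wild-type libraries of another number. With the replicate block, 4690 genes were higher and 4563 lower, against 4621 and 4539 without it, and among the 8 genes it changed no call other than that of Tbc1d15. Of the list genes named, it changed the call of Gabarap (-0.30). Wild-type replicate 3, the shallowest library, was the lowest wild-type library for 6 of the 8 tested genes, and the cause was not tested. The 8 genes had at least 10.9 CPM in every library.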

Other observations

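The mitochondrially encoded ribosomal RNAs Rnr1 and Rnr2 took 0.208%, 0.835% and 3.73% of the counts in the knockout-labelled libraries, against 1.45%, 1.72% and 2.82% in the wild-type libraries. The groups overlapped, and libraries numbered 3 were the highest of each group. Bnip3l-ps, a pseudogene copy of Bnip3l on chromosome 12, had 0.378 ± 0.172 CPM in the knockout-labelled and 1.06 ± 0.419 CPM in the wild-type libraries (SD, n = 3 each; adjusted p = 0.0213 in edgeR), a small number of reads beside those of Bnip3l, with which it could exchange them.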
